A study of Mus musculus with 6 samples.

Results

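Angiotensin and vasopressin are small peptides that act on cells through receptors in the membrane. They are made and broken down by peptidases, some of which sit on the cell surface. The 8 genes described here are Agt, which encodes their angiotensin precursor, the receptors Agtr2, Agtr1a and Avpr1a, and the peptidases Ace, Enpep, Anpep and Lnpep. They were taken by gene symbol from the 53801 genes counted, and all 8 were found. The set had been chosen by results of these same samples, the fold changes between the genotypes, so the values of these 8 genes in the 2 genotypes are a description and carry no test. RNA was sequenced from maxillary prominences, the paired facial swellings that form the upper jaw and most of the palate, of mouse embryos at E12.5, labeled as strain C57BL/6, with C57BL/6J given as the background in the protocols. There were 3 samples of wild type (WT) embryos and 3 of wnt1cre; Rosa26Dlx2/- embryos (Dlx2OE). Dlx2OE embryos carried 1 copy of a CAG-LSL-Dlx2-3xFlag cassette in the Rosa26 locus, which the Wnt1-driven Cre switches on in the neural crest lineage, from which the epithelium, endothelium and blood cells of the same tissue do not derive. The RNA came from dissected tissue of littermates, 7 by the sample labels and a different number by the methods. A sample may thus hold more than 1 embryo. By the sex-linked counts given below with Agtr2, every sample but WT sample 2 held RNA of both sexes, and so more than 1 embryo. It is not stated which samples shared a litter. In such whole tissue, fewer cells of a type and less RNA per cell cannot be told apart.

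In the renin-angiotensin system, angiotensin I is released from angiotensinogen by renin and is trimmed to angiotensin II by angiotensin-converting enzyme (Ace). Aminopeptidase A (Enpep) takes the first residue from angiotensin II, and aminopeptidase N (Anpep) takes the next. Angiotensin II acts on the AT1 receptor (Agtr1a), which couples to Gq and contracts vessels, and on the AT2 receptor (Agtr2), which is known for its high level in fetal mesenchyme and its decline after birth. Vasopressin acts on vascular V1a receptors (Avpr1a), which also couple to Gq, and vasopressin and oxytocin are cleaved by the membrane aminopeptidase Lnpep, which in addition binds a short angiotensin fragment.

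Dlx2 itself had 1255, 1056 and 1409 read pairs in the WT samples and 3521, 4102 and 3336 in the Dlx2OE samples. That is 41.0 ± 5.32 against 124 ± 5.96 CPM, the count scaled to library size by the TMM method (SD, n = 3 each), so the targeted gene went with the labels in all 6 samples. The counts do not separate the endogenous gene from the cassette. Between 26155500 and 31308813 read pairs per sample were counted on genes. In Dlx2OE sample 3, 14.7% of read pairs fell on no gene, against 5.03% to 7.81% in the other 5 samples. Markers of neurons summed to 646 and 1480 CPM in Dlx2OE samples 2 and 3 and to 74.9 to 339 CPM in the other 4. Markers of epithelium had the highest sum in Dlx2OE sample 1, at 1870 CPM against 584 to 1320. Krt5 and Krt14 led that sum, with 15929 and 14506 read pairs there, while Epcam was highest in WT sample 2. The defining genes of facial mesenchyme were present in every sample, summing to 4260 to 4680 CPM in WT and 4900 to 5020 CPM in Dlx2OE.

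Across all genes, 17514 had enough counts for a test with edgeR's quasi-likelihood method, and a gene was called when its Benjamini-Hochberg adjusted p was under 0.05 and its log2 fold change was above 1 or below -1. By that rule 1.50% of the tested genes were higher in Dlx2OE and 1.62% were lower. At the adjusted p alone the shares were 2.99% and 3.46%, and in 34.1% of the genes the 3 CPM values of a genotype did not overlap those of the other. Of the 8 genes, 7 were tested, and Agt had too few counts. Among these 7, Avpr1a met the rule as higher, Agtr2 and Enpep met it as lower, and Lnpep met the adjusted p but not the fold change. The genotypes did not overlap in those same 4 genes. Nothing is read from these shares, because the contrast itself had chosen the genes.

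The stretches just before the starts of the 3 genes that met the rule are shown to place these genes in the genome and to give their base composition at the start. They are RefSeq promoter sequences of GRCm38.p6, cut where the GENCODE gene begins. Capitals mark CG dinucleotides and the letters TATAA on either strand. The Agtr2 stretch is chrX:21484374-21484543 on the forward strand, that of Enpep is chr3:129332750-129332999 on the reverse strand and that of Avpr1a is chr10:122448249-122448498 on the forward strand.
Agtr2: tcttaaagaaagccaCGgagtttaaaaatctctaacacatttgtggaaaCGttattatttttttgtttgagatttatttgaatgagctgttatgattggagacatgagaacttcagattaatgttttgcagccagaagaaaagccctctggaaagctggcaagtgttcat
Enpep: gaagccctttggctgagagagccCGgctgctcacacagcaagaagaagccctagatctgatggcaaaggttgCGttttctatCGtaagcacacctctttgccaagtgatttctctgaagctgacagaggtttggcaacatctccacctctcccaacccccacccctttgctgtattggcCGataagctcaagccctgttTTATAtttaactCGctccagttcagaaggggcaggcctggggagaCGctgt
Avpr1a: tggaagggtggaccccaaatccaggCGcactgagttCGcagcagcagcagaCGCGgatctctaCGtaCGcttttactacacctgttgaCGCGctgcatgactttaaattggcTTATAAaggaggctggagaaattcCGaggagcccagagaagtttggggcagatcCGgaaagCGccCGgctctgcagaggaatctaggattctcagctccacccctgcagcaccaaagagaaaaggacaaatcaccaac

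In the windows of 250 bases before the RefSeq start, Agtr2 held 3 CG dinucleotides, Enpep 6 and Avpr1a 12, against a median of 6 over 32851 such windows of the mouse genome. The Lnpep, Anpep and first Ace windows were richer, with 25, 23 and 19, and the Agt window had 0. TATAA was found on either strand in the windows of Agtr2, Enpep, Avpr1a, Agt and Ace, as in 22.8% of all windows. It lay 26 bases before the RefSeq start of Agtr2, in the part that GENCODE counts as exon and that is not shown, and 51 bases before that of Enpep. In Avpr1a the letters were matched on both strands at overlapping positions, 138 and 137 bases before the start. TAATTA, the core letters bound by many homeodomain proteins, was in 4.84% of all windows and in none of those of these genes. Its absence says only that these letters are not in this window. The promoter of Agtr1a was not analysed here.

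Agt, the only precursor of the angiotensins, was close to absent. The WT samples had 6, 1 and 9 read pairs, or 0.205, 0.0332 and 0.289 CPM, and the 3 Dlx2OE samples had 0. A level of 3 read pairs, 0.0955 to 0.111 CPM, was taken as the smallest detectable, so Agt was above it in 2 WT samples and under it in the other 4 samples, where a difference is not detectable at this depth. Among 18 further genes of the system, Ren1, which encodes renin, had 0 to 3 read pairs per sample, so both the precursor and its protease were near the detection limit. The gene for vasopressin itself, Avp, had 0 to 2 read pairs per sample, and the gene for oxytocin, Oxt, also had 0 to 2. These 3 genes lie outside the rule for named genes and are given because they encode the ligands or release them.

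Agtr2 was the most abundant of the 8 genes in WT. It lies on the X chromosome, from 21484544 to 21489164. It had 60.2, 89.1 and 72.5 CPM in WT samples 1 to 3 and 6.35, 6.59 and 11.9 CPM in Dlx2OE samples 1 to 3. The lowest WT sample was far above the highest Dlx2OE sample. The log2 fold change was -3.17 (SE 0.27), or 8.97-fold lower in Dlx2OE, and it ran from -3.51 to -3.02 when each sample was left out in turn. In level per length, as RPKM on the exons of GENCODE M21, Agtr2 was at the 86.9th percentile of the tested genes in WT and at the 40.8th in Dlx2OE. Because the gene is X-linked, the sex of the embryos was set beside it. Xist, which is made from the inactive X of females, had 41270, 307 and 33375 read pairs in the WT samples and 35070, 68121 and 63812 in the Dlx2OE samples. Ddx3y, on the Y chromosome, had 878, 2445 and 1934 in the WT samples and 1584, 973 and 436 in the Dlx2OE samples. Every sample other than WT sample 2 thus had high counts of both genes. WT sample 2 had the least Xist and the most Agtr2, and without it the log2 fold change of Agtr2 was -3.02. The part of embryo sex in the level of Agtr2 was not tested.

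Agtr1a, the main AT1 gene of rodents, was much lower than Agtr2. Its CPM was 4.89, 2.85 and 4.55 in WT and 1.59, 4.17 and 3.66 in Dlx2OE. These values overlapped, with Dlx2OE sample 1 lowest of the 6. The log2 fold change was -0.38 (SE 0.384), from -0.65 to -0.07 with each sample left out, which is within its own error. The second AT1 gene, Agtr1b, had 0 to 3 read pairs per sample, and no window of 100 bases in Agtr1a was identical to one of another gene, Agtr1b included. Within each sample, the ratio of Agtr2 to Agtr1a in RPKM was 10.3, 26.2 and 13.3 in WT and 3.35, 1.32 and 2.72 in Dlx2OE. Such a ratio does not depend on how the libraries were scaled, and Agtr2 was still above Agtr1a in all 6 samples.

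**Figure D1:**
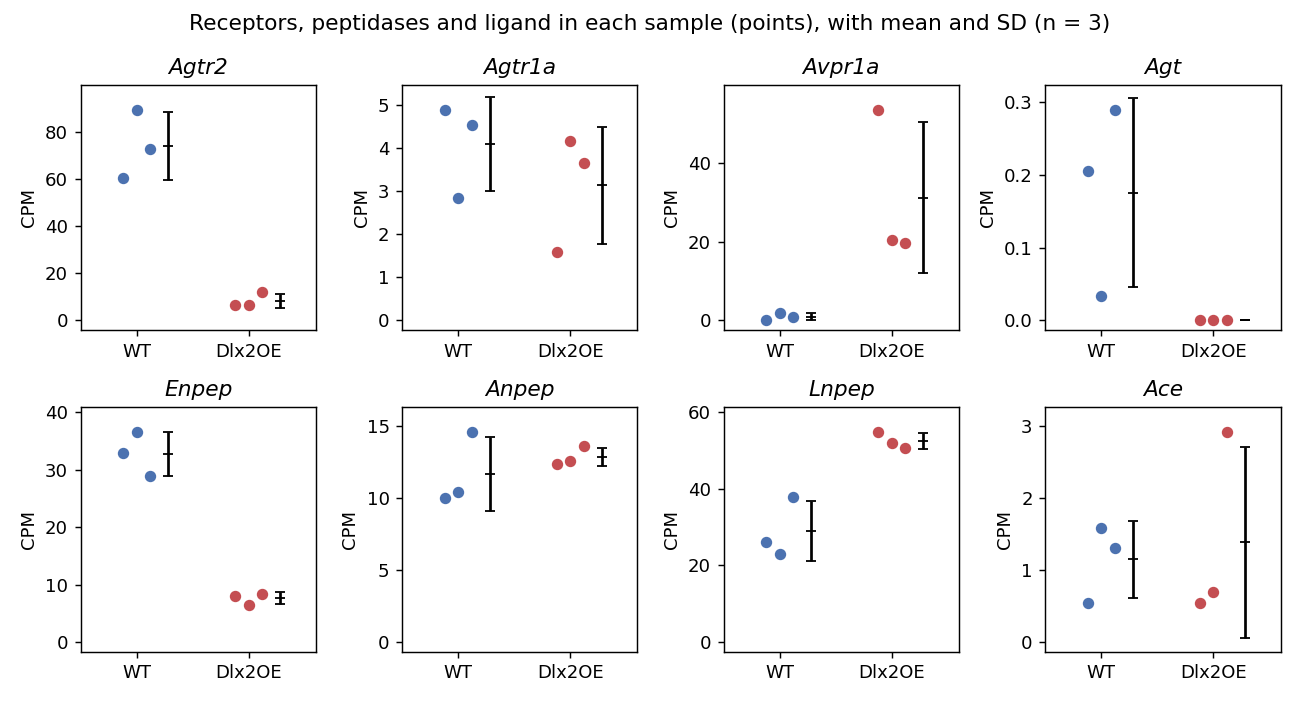
TMM-scaled CPM of the 8 genes in each of the 3 WT (blue) and 3 Dlx2OE (red) samples, with a black bar for the mean and SD beside each group and a scale of its own in each panel. Agtr2 and Enpep were lower in every Dlx2OE sample, Avpr1a and Lnpep were higher, and Agtr1a, Anpep and Ace overlapped.

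Avpr1a, on chromosome 10 from 122448499 to 122453452, showed the largest difference of the 8 genes. The WT samples had 7, 55 and 26 read pairs, or 0.239, 1.83 and 0.834 CPM, and the Dlx2OE samples had 1578, 643 and 530, or 53.3, 20.5 and 19.6 CPM. Every Dlx2OE sample was more than 10 times the highest WT sample, and the spread within each genotype was wide, with a coefficient of variation of 82.9% in WT and 61.7% in Dlx2OE. The log2 fold change was 5.00 (SE 0.677). It was 4.36 without Dlx2OE sample 1 and 5.83 without WT sample 2, so the size depended on these 2 samples while the direction did not. Dlx2OE sample 1, the highest in Avpr1a, also had the highest sum of epithelial markers, led by Krt5 and Krt14. The list was divided: Krt15, Trp63, Esrp1 and Grhl2 were also highest there, while Epcam, Cdh1, Krt8 and Krt18 were highest in WT sample 2. Dlx2OE samples 2 and 3 had the highest sums of neuronal markers. The part of these in the level of Avpr1a was not tested. By level per length, Avpr1a was at the 13.7th percentile of the tested genes in WT and at the 74.6th in Dlx2OE, where it was the highest of the 8.

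The oxytocin receptor gene Oxtr, the relative of Avpr1a that was also measurable, is given for comparison and was chosen after its values were seen. Its counts were 118, 254 and 194 in WT against 121, 72 and 41 in Dlx2OE. The difference did not pass the test in edgeR (log2 fold change -1.24, SE 0.41, adjusted p = 0.0982) and passed in DESeq2. Avpr1a was below Oxtr in every WT sample, with RPKM ratios of 0.106, 0.388 and 0.24, and above it in every Dlx2OE sample, with 23.4, 16.0 and 23.2. The other vasopressin receptor genes, Avpr1b and Avpr2, had at most 5 read pairs in any sample.

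**Figure D2:**
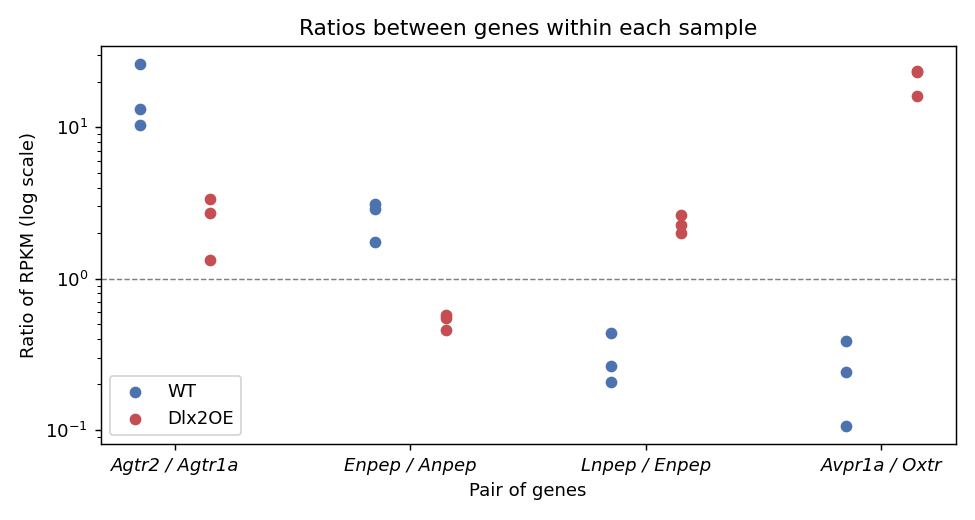
Ratio of the RPKM of a gene to that of another in the same sample, on a log axis, for 4 pairs of genes in the 3 WT (blue) and 3 Dlx2OE (red) samples, with a dashed line at 1. Agtr2 to Agtr1a stayed above 1 in all samples, and the other 3 ratios lay on opposite sides of 1 in the 2 genotypes.

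Among the peptidases, Enpep was the highest per length in WT and was lower in Dlx2OE. The gene spans chromosome 3 from 129269175 to 129332720. It had 32.9, 36.6 and 28.9 CPM in WT and 8.1, 6.56 and 8.46 CPM in Dlx2OE, with little spread in either genotype. The log2 fold change was -2.09 (SE 0.157), or 4.26-fold lower, with a range of -2.18 to -1.99 when each sample was left out. Enpep is known in pericytes as well as in kidney and gut, so the markers of mural cells were set beside it. Their summed level was 440 to 506 CPM in WT and 379 to 505 CPM in Dlx2OE and overlapped, and most of that sum came from the abundant genes Pdgfrb and Notch3. Of the 10 tested markers, 7 had a negative and 3 a positive log2 fold change, with a median of -0.54, and 1, Rgs5, was lower at the adjusted p threshold. Of the 12 listed, Higd1b had 0 or 1 read pair per sample. Pdgfrb, 1 of the 3 markers with a positive log2 fold change, had 137 ± 15.6 CPM in WT, against 149 ± 14.3 in Dlx2OE (SD, n = 3 each). Within each sample, Enpep relative to Pdgfrb in RPKM was 0.301, 0.332 and 0.217 in WT and 0.0705, 0.0502 and 0.0608 in Dlx2OE. Relative to Rgs5 it was 1.99, 1.49 and 1.27 in WT and 1.01, 0.655 and 0.868 in Dlx2OE, with no overlap between the genotypes in either ratio. The part of mural cells in the level of Enpep was not tested.

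Anpep, unlike Enpep, had similar levels in both genotypes. Its counts of 293, 312 and 454 in the WT samples and of 368, 396 and 368 in the Dlx2OE samples correspond to 11.6 ± 2.53 and 12.9 ± 0.626 CPM (SD, n = 3 each), and the genotypes overlapped. The log2 fold change was 0.14 (SE 0.183), from 0.04 to 0.33 with each sample left out. As a result the order of the peptidases for the first and the second residue was turned round: Enpep over Anpep in RPKM was 2.89, 3.11 and 1.74 in the WT samples and 0.573, 0.457 and 0.547 in the Dlx2OE samples.

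Lnpep, on chromosome 17 from 17521410 to 17625050, was higher in Dlx2OE by a smaller factor. It had 26.1, 23.0 and 37.9 CPM in WT and 54.8, 51.8 and 50.6 CPM in Dlx2OE. WT sample 3 was well above the other WT samples, and the Dlx2OE samples lay close together. The log2 fold change was 0.85 (SE 0.179), or 1.81-fold, from 0.70 to 1.08, and it passed 1 only without WT sample 3. The adjusted p of Lnpep was under the threshold in 2 of 6 fits with a sample left out, those without WT sample 3 and without Dlx2OE sample 1, and over it in the other 4. Lnpep over Enpep in RPKM was 0.264, 0.209 and 0.437 in WT and 2.25, 2.63 and 1.99 in Dlx2OE.

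Ace was near the bottom of the measurable range. Its counts were 16, 48 and 41 in WT against 16, 22 and 79 in Dlx2OE, or 0.54 to 2.92 CPM over the 6 samples. The genotypes overlapped, and the log2 fold change of 0.25 (SE 0.675) went to -0.89 without Dlx2OE sample 3 and to -0.09 without WT sample 1. Dlx2OE sample 3 is also the sample with the most read pairs outside genes. Of the exon sequence of Ace, 5.58% overlaps Gm11651 on the opposite strand, and the strand setting of the counting is not stated.

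**Figure D3:**
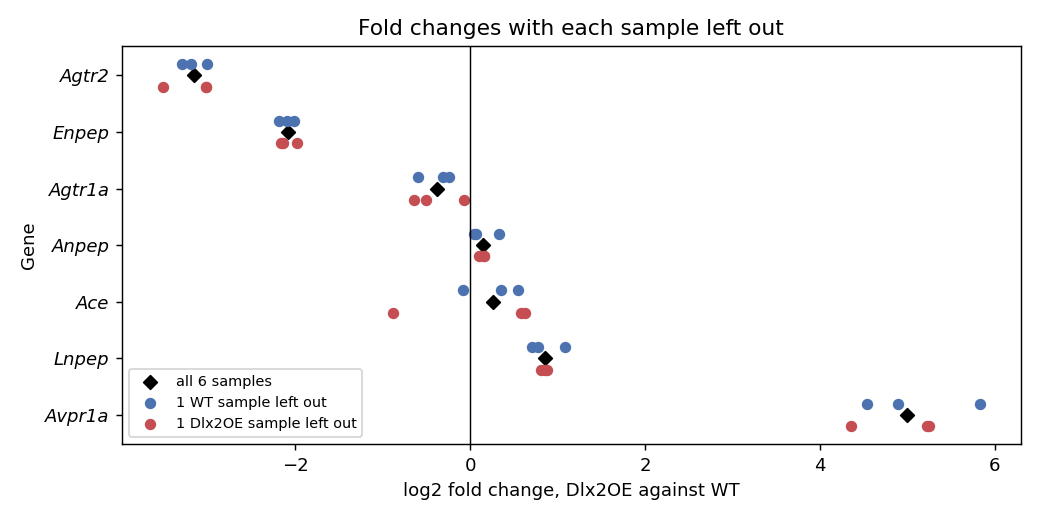
Log2 fold change of the 7 tested genes, Dlx2OE against WT, with all 6 samples (black diamonds), with 1 WT sample left out (blue) and with 1 Dlx2OE sample left out (red). Every gene except Ace kept its sign, and Ace ran from -0.89 to 0.63.

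By mean RPKM, the WT order was Agtr2 at 22.2, Enpep at 6.97, Anpep at 2.82, Lnpep at 2.05, Agtr1a at 1.47, Avpr1a at 0.362, Ace at 0.218 and Agt at 0.0929. Agtr2, Enpep and the group after them were separated without overlap. Anpep overlapped Lnpep, Lnpep overlapped Agtr1a, Avpr1a overlapped Ace, and Ace overlapped Agt, so the ranges over samples do not separate these neighbors. Within each WT sample, Anpep was still above Lnpep and Lnpep above Agtr1a. Avpr1a and Ace, and Ace and Agt, were in the reverse order in WT sample 1. In Dlx2OE the order was Avpr1a at 11.6, Lnpep at 3.71, Anpep at 3.11, Agtr2 at 2.48, Enpep at 1.64, Agtr1a at 1.13, Ace at 0.262 and Agt at 0. There only Anpep overlapped Agtr2 and Enpep overlapped Agtr1a. Of these genes, those for the AT2 receptor and aminopeptidase A thus had the highest levels per length in WT, and those for the V1a receptor, Lnpep and Anpep in Dlx2OE.

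**Figure D4:**
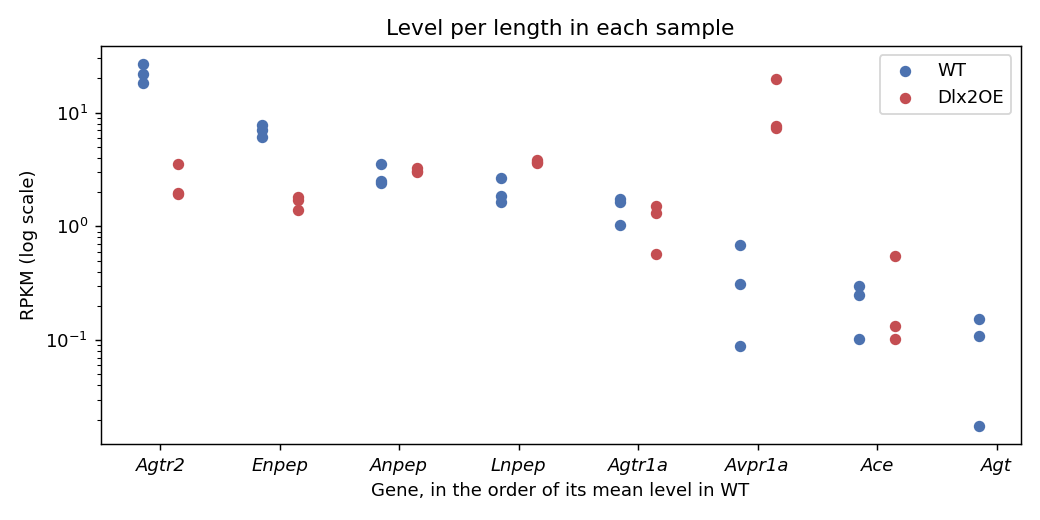
RPKM of the 8 genes in each WT (blue) and Dlx2OE (red) sample on a log axis, in the order of the WT mean. The 3 Dlx2OE values of Agt are 0 and cannot be drawn on this axis, and Avpr1a lies below 5 of the other genes in WT and above all of them in Dlx2OE.

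The other genes of these pathways were read from 5 lists with 75 genes in all, of which 57 were tested. At the adjusted p threshold 4 were higher and 4 were lower in Dlx2OE, or 8 of 57, against the shares of 2.99% and 3.46% over all genes given above. The lists were drawn up with earlier results of these data known, so nothing is read from this difference in shares. In the renin-angiotensin list, 12 of 18 genes were tested, with 1 higher and 2 lower and a median log2 fold change of -0.03. Over all tested genes the median was 0.00275. Mme, the peptidase neprilysin, which turns angiotensin I into the shorter angiotensin 1-7, was the highest gene of the list, with 11594, 10376 and 11060 counts in WT against 6047, 6062 and 5162 in Dlx2OE. The fall was by 0.90 on the log2 scale (SE 0.104, adjusted p = 0.00844). Ctsd, the aspartic protease cathepsin D, fell by 0.79 (SE 0.0995, adjusted p = 0.0104), with an adjusted p of 0.0621 without WT sample 2. Mas1, the receptor of angiotensin 1-7, had 38, 44 and 38 counts in WT against 85, 80 and 114 in Dlx2OE, and rose by a log2 fold change of 1.27 (SE 0.278, adjusted p = 0.0395). That call was lost in 5 of 6 fits that left out a sample, with an adjusted p of 0.0649 to 0.136, and it held without Dlx2OE sample 1, at 0.0329.

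In the list of vasopressin and oxytocin genes, 6 of 11 were tested and 0 passed at the adjusted p threshold in edgeR, with 4 at an unadjusted p under 0.05, against 29.5% of all tested genes, and 2 passing by DESeq2, against 12.7% of all genes with an adjusted p there. The 2 were Oxtr, which was lower, and Pam, which amidates the ends of peptide hormones and was higher. The median log2 fold change of the 6 was 0.56. Cpe, a carboxypeptidase that matures neuropeptides, had the highest level of the list, with counts of 2689, 2781 and 3231 in WT against 4229, 3634 and 3270 in Dlx2OE (log2 fold change 0.40, SE 0.112, adjusted p = 0.0694).

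All 8 other M1 aminopeptidases, the zinc enzyme family of Enpep, Anpep and Lnpep, were tested, and 1 passed. Lvrn, laeverin, had 22, 28 and 31 counts in WT against 172, 139 and 105 in Dlx2OE, which is a log2 fold change of 2.39 (SE 0.268, adjusted p = 0.00789), and it passed with each sample left out. Lta4h, which makes leukotriene B4, was the highest of the family with a log2 fold change of -0.31 (SE 0.126, adjusted p = 0.148). The median of the family was 0.05.

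The list of kinin and other vasoactive peptide genes had 10 of 17 tested, 2 higher and 1 lower, with a median of -0.09. Bdkrb2, the constitutive bradykinin receptor, had 20, 35 and 26 counts in WT against 97, 74 and 117 in Dlx2OE and rose by 1.89 (SE 0.333, adjusted p = 0.0229). Its adjusted p was 0.0646 without Dlx2OE sample 3, 0.0848 without WT sample 1 and 0.079 without WT sample 2. Npr3, the clearance receptor of natriuretic peptides, rose by 1.01 (SE 0.129, adjusted p = 0.0104), with 0.0629 without WT sample 2. Cpm, a membrane carboxypeptidase that trims kinins, fell by 0.87 (SE 0.195, adjusted p = 0.0421), and the call held in 2 of 6 fits, without Dlx2OE sample 1 and without WT sample 3, and was lost in the other 4, at 0.0653 to 0.142. The highest gene of the list, Ece1, the endothelin-converting enzyme, did not pass (log2 fold change -0.38, SE 0.183, adjusted p = 0.204).

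Both AT1 and V1a receptors signal through Gq. All 21 genes of the list of Gq coupling and receptor desensitization were tested, 1 passed in edgeR and the median was 0.06. By DESeq2, 2 were higher, Arrb1 and Rgs4, and 3 were lower, Rgs2, Rgs3 and Rgs5. Over all genes with an adjusted p there, 12.7% passed in either direction. Rgs4 had 79, 182 and 133 counts in WT against 94, 1121 and 1405 in Dlx2OE. Arrb1 had 1240, 1154 and 1486 against 1338, 2083 and 2356. In both genes Dlx2OE sample 1 thus lay within the WT counts, and the edgeR adjusted p was 0.0777 for Rgs4 and 0.109 for Arrb1. Rgs5, a regulator that shortens G protein signaling and is abundant in pericytes, fell by 1.20 (SE 0.189, adjusted p = 0.0176), with counts of 469, 717 and 687 in WT against 229, 304 and 255 in Dlx2OE. Its adjusted p was 0.0541 without Dlx2OE sample 2 and 0.0852 without WT sample 2. Grk6, a receptor kinase with the highest level of the list, had a log2 fold change of 0.14 (SE 0.10, adjusted p = 0.368).

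**Figure D5:**
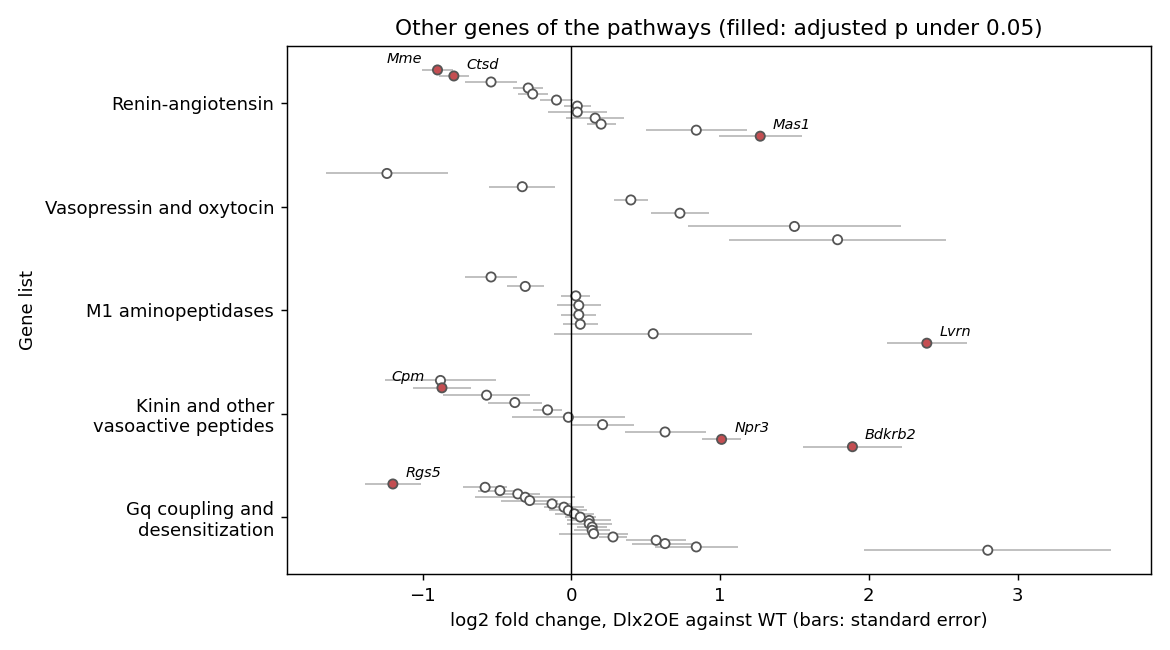
Log2 fold change, Dlx2OE against WT, with its standard error, of the 57 tested genes in 5 lists of related genes that exclude the 8 genes described above. Filled and named points passed the adjusted p threshold (edgeR, Benjamini-Hochberg), 4 higher and 4 lower.

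Enpep and Agtr2 were compared with all tested genes of at least 0 mean log2 CPM by the root mean square difference of log2 CPM over the 6 samples, after each gene was centred on its mean. The 5 nearest to Enpep were 2610016A17Rik at 0.167, F3 at 0.188, mt-Co2 at 0.194, Foxe1 at 0.198 and Gm28439 at 0.204. The 5 nearest to Agtr2 were farther away, with Itgbl1 at 0.42, Brinp3 at 0.445, Dmrt1 at 0.449, Gm12446 at 0.458 and Il33 at 0.478. All 10 were lower in Dlx2OE, which the measure itself selects.

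The nearest protein-coding gene on each side of the 8 genes was also read. Of these 16 neighbors, 10 were tested and Lix1, 62022 bp from Lnpep, was the one that was called, with 252, 269 and 306 counts in WT against 2349, 2306 and 1998 in Dlx2OE (log2 fold change 3.05, SE 0.105, adjusted p = 3.77e-05). The neighbors of Avpr1a, Rxylt1 and Ppm1h, had log2 fold changes of -0.47 and 0.06 and did not pass, with adjusted p of 0.0741 and 0.879. Those of Agtr2 were too low to be tested.

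Marker levels of cell types in the tissue were also read. Of 10 marker lists, 3 had summed levels that did not overlap between the genotypes. Among all tested genes, taken singly, 34.1% did not overlap, so nothing is read from this count. At the adjusted p threshold, 2.99% of all tested genes were higher and 3.46% were lower. Markers of macrophages summed to 90.7 to 102 CPM in WT and 62.4 to 67.3 CPM in Dlx2OE, with 2 of 10 lower at the adjusted p threshold, and markers of erythroid cells to 3330 to 4440 CPM and 2010 to 2600 CPM, with 3 of 10 lower. The third list, facial mesenchyme, was higher in Dlx2OE, with 2 of 9 higher. Markers of endothelium summed to 371 to 547 CPM in WT and 262 to 416 CPM in Dlx2OE and overlapped. All 11 had a negative log2 fold change, with a median of -0.45, and 1, Emcn, was lower at the adjusted p threshold. Markers of epithelium overlapped in their sum, with 4 positive and 6 negative log2 fold changes and a median of -0.27. Of these, Krt8 and Krt18 were lower at the adjusted p threshold. The part of these cell types in the levels of the receptors and peptidases was not tested.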

How the data were processed

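Per the labels and the methods, the authors mapped paired reads to mm10 with STAR 2.7.3a and deposited the raw count of read pairs on each gene (HTSeq 0.12.4, union mode). The annotation release and the strand setting are not given in the sources used here. Symbols, positions and lengths were taken from GENCODE M21 (GRCm38), which matched 53706 of 53801 identifiers, and promoter sequences from RefSeq. Lines that name no gene entered no test.

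The test used edgeR 4.0.16, run in R 4.3.3 (filterByExpr with a minimum count of 10, TMM scaling, quasi-likelihood F test on genotype, Benjamini-Hochberg adjustment over 17514 genes). The study's methods used DESeq2, which was run as an alternative (version 1.42.0). CPM are TMM-scaled, RPKM use the union of exons, and log2 CPM for profiles had a prior count of 2. The floor was 3 counts and covers counting error only. The adjusted p sets the genotype difference against the spread between these samples, with adjustment over all tested genes. Where a sample holds more than 1 embryo, the spread between single embryos is not measured.

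The 8 genes and all lists were chosen with earlier results of these data known. Named are the 8 genes, Dlx2, and the 5 nearest profiles of Agtr2 and Enpep. From each of the 5 pathway lists, every gene at the adjusted p threshold and the gene with the highest WT RPKM are named. From the marker lists only some of the genes at that threshold are named. Names outside this rule were chosen after their values were seen. Neighbors, ratios within a sample and sex-linked genes were added after the data were seen. The code was tested on simulated data. Alternatives were other scalings, filters and tests, a replicate block, removal of mitochondrial and haemoglobin genes, and each sample left out.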

Additional observations from a re-analysis of the deposited data

Results flagged for a closer look

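In Dlx2OE sample 3, 14.7% of read pairs fell on no gene. In the WT samples the share was 5.03%, 5.43% and 5.25%, and in Dlx2OE samples 1 and 2 it was 5.75% and 7.81%. It was noted because these read pairs lie outside the gene counts. Without that sample the log2 fold change was -3.51 for Agtr2 and 5.25 for Avpr1a, and that of Ace was -0.89 in place of 0.25.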

How the results depend on the processing

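The fold changes of the tested receptors and peptidases moved by less than the spread between samples in 89 of 90 values under the alternatives, the exception being Ace without Dlx2OE sample 3. Agtr2 and Enpep met the call rule under all 13 alternatives and Avpr1a under all 12 that kept it, since a minimum of 10 counts in every sample removes it. Agt, which only DESeq2 and the fit with no filter kept, was called in neither. Over all genes, 262 were called higher and 284 lower. DESeq2 called 447 and 440, no filter on low counts gave 506 and 497, and calls at any fold change numbered 524 and 606. Leaving out 1 sample gave 39 to 642 higher and 35 to 531 lower. Of the pathway genes, 4 were higher and 4 lower. DESeq2 gave 7 and 8, where 12.7% of all genes with an adjusted p passed in either direction. No filter gave 8 lower, and leaving out a sample gave 1 to 9 higher and 1 to 6 lower. Calls over all genes also changed with these settings, so nothing is read from the changes in the pathway counts. Of the neighbors in the WT order, 4 overlapped, and 2 to 3 did with a WT sample left out. The replicate numbers did not pair the samples (correlations of deviations -0.0718, -0.211 and 0.0731). Between samples of unlike number the correlations ran from -0.204 to 0.345, the highest for WT sample 1 with Dlx2OE sample 2. No block on another matching was fitted. With a block on the replicate numbers 202 genes were called higher and 196 lower. With that block 3 pathway genes were higher and 3 lower. The low counts of Agt, Ace and WT Avpr1a limit what can be said of them.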
